A study of Homo sapiens with 3 samples.

Results

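Aminoacyl-tRNA synthetases are the enzymes that join each amino acid to its own transfer RNA, the step that makes charged tRNA for protein synthesis. RNA sequencing of LNCaP-abl cells, a prostate cancer line derived from LNCaP that grows without androgen, was used to describe 34 genes of this family, of 22613 genes listed per library. The members were taken by gene symbol from a list, and all 34 were found. No measured value entered that rule, but the list was chosen with earlier results of these data known. They comprise 19 genes whose main product works in the cytosol and 15 genes, marked by the suffix 2, whose product works in mitochondria.

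The study compared cells given a pool of siRNAs against the transcription factor E2F1 (siE2F1, 1 library) with cells given control siRNA (2 libraries, numbered 0 and 1). Cells of both groups, at passages 53 to 60, were grown in phenol-red-free medium with steroid-stripped serum, transfected by a lipid reagent and collected after 72 h. All libraries come from 1 cell line, the siE2F1 value has no replicate, and no label tells if the controls were separate cultures, so p-values measure only the spread between the 2 controls, which may be technical. Levels are FPKM, fragment counts scaled to transcript length and library size, so genes can be compared per length. Differences are on the log2(FPKM + 1) scale, siE2F1 minus the control mean.

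The targeted gene was at 10.6 FPKM in both controls and 1.68 in siE2F1 (log2 fold change -2.12, limma adjusted p = 0.0311; without small RNA genes 0.0106). The call did not hold under a pseudocount of 0.1 (adjusted p = 0.0601), nor without the minimum on mean FPKM (adjusted p = 0.159). The files give no counts, and depth is therefore unknown. The libraries were scaled alike, with a median of 9.04 FPKM over the 14401 genes tested in each, which hides any change common to most genes. Of 7 luminal LNCaP markers 6 were at 1 FPKM or more, with a summed level of 760, 776 and 815 FPKM in control 0, control 1 and siE2F1. KLK3, which encodes PSA, was at or below 0.156 FPKM in every library. Of the matched basal, fibroblast, endothelial and leukocyte markers, CD68 alone reached a mean of 1 FPKM (5.47, 5.29 and 5.67 FPKM). The only matched basal marker, KRT14, was at 0. The markers KRT5, TP63, COL1A2, VWF and CD3E were not matched and have no value.

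The cytosolic enzymes charge the tRNAs read by ribosomes on messenger RNA from the nucleus, and 8 of the cytosolic genes encode parts of one multisynthetase complex. The mitochondrial enzymes are made in the cytosol, imported, and serve the few proteins that the mitochondrial genome encodes. GARS and KARS each give both a cytosolic and a mitochondrial form from one gene, so the split by suffix is not a clean split by compartment. Many cytosolic synthetase genes are known targets of ATF4, the factor that answers amino acid shortage and endoplasmic reticulum stress through a DNA element bound by C/EBP and ATF proteins. WARS, the cytosolic tryptophanyl enzyme, is in addition a gene that interferon gamma induces.

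Promoter sequences were searched for short patterns of such elements. A match was not tested for binding or function, and its relation to the values that follow was not tested. RefSeq windows of 250 bases before to 50 bases after an annotated start (GRCh38.p14) were at hand for 30 of the 34 members, 39 windows in all. The pattern TGATGNAA, searched on both strands as the C/EBP-ATF element, was found in 3.62% of 35116 windows of all genes. It was present in 7 of the 16 cytosolic members with a window and in 1 of the 14 mitochondrial members, YARS2. Counted by window, as in the share over all genes, this was 7 of 21 cytosolic and 1 of 18 mitochondrial windows. All 7 cytosolic members with a match belong to the 12 cytosolic genes known as ATF4 targets, of which 10 had a window. The stretch around each match is shown 5′ to 3′ along the gene's strand, with the match in capitals.
AARS, chr16:70289670-70289709, minus strand: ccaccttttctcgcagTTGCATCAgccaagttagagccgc
CARS, chr11:3057402-3057441, minus strand: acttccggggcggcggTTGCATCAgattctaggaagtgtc
GARS, chr7:30594829-30594868, plus strand: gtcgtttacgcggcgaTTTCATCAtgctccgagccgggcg
IARS, chr9:92293687-92293726, minus strand: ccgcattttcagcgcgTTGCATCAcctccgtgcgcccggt
MARS, chr12:57488048-57488087, plus strand: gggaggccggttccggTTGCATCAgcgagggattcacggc
NARS, chr18:57621799-57621838, minus strand: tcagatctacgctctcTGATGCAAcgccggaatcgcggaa
TARS, chr5:33440951-33440990, plus strand: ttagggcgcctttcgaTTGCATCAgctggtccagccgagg
The matched letters are the same in 6 of the 7 genes once strand is taken into account, and GARS differs from them. In NARS the match lies on the strand of the gene and in the other 6 on the opposite strand.

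WARS has a pair of RefSeq start windows, and the downstream one is shown because it holds both interferon patterns. Capitals mark the GAS pattern TTCNNNGAA, a site type of interferon gamma targets, and then the ISRE pattern (GAAA, then NN, then GAAA), a site type bound by IRF and STAT factors, each searched on both strands.
WARS, chr14:100375298-100375597, minus strand: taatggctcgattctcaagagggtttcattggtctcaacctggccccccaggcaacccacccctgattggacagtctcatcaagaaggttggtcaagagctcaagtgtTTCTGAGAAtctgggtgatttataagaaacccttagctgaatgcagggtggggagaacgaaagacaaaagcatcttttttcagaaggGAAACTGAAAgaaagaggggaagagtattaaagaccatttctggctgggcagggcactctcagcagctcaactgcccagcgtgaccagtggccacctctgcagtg
The ISRE match begins 55 bases before the start and the GAS match 142 bases before it. Over all genes, 3.57% of windows held the ISRE pattern and 7.66% the GAS pattern. Among the members with a window, WARS and EARS2 held an ISRE match, and CARS, TARS, WARS, PARS2 and WARS2 a GAS match.

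HARS and HARS2 are head-to-head neighbours, and their shared start region is shown because the 2 genes gave different values. Capitals mark the 84 bases between the annotated starts, position 140691370 for HARS on the minus strand and 140691455 for HARS2 on the plus strand.
HARS2, chr5:140691205-140691504, plus strand: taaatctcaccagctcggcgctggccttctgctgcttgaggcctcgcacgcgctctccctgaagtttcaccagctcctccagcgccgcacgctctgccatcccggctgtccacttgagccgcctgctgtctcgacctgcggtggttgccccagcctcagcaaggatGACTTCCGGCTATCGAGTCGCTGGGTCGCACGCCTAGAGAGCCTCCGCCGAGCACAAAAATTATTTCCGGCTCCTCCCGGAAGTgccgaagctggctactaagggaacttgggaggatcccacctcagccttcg
The RefSeq windows of the genes share 184 bases. The E2F patterns TTTGGCGC, TTTGCCGC, TTTCGCGC and TTTCCCGC, searched on both strands, were in 3.31% of all windows and in windows of 4 members, GARS, TARS, EARS2 and RARS2.

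Cytosolic enzymes were the more abundant transcripts. Their median level was 60.1, 57.3 and 57.6 FPKM in control 0, control 1 and siE2F1, against 11.4, 11.8 and 12.0 FPKM for the mitochondrial enzymes. TARS, the threonyl enzyme, was the highest member with a control mean of 189 FPKM, at percentile 97.7 of the genes tested, followed by AARS (alanyl) at 131 and KARS (lysyl) at 121. The 2 controls of AARS (140 and 121 FPKM) and of KARS (123 and 120) overlapped in range, so the order of these neighbours is not set. The lowest cytosolic member was CARS (cysteinyl) at 27.2 FPKM, and WARS stood just above it at 29.4 FPKM. One mitochondrial gene lay within the cytosolic range: IARS2 (isoleucyl) was at 51.3 FPKM, level with its cytosolic counterpart IARS at 51.3. The next mitochondrial gene was LARS2 (leucyl) at 21.9 FPKM, and PARS2 (prolyl) was the lowest of the family at 3.08 FPKM, percentile 22.4. All 34 members passed the minimum mean of 1 FPKM over the 3 libraries.

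**Figure D1:**
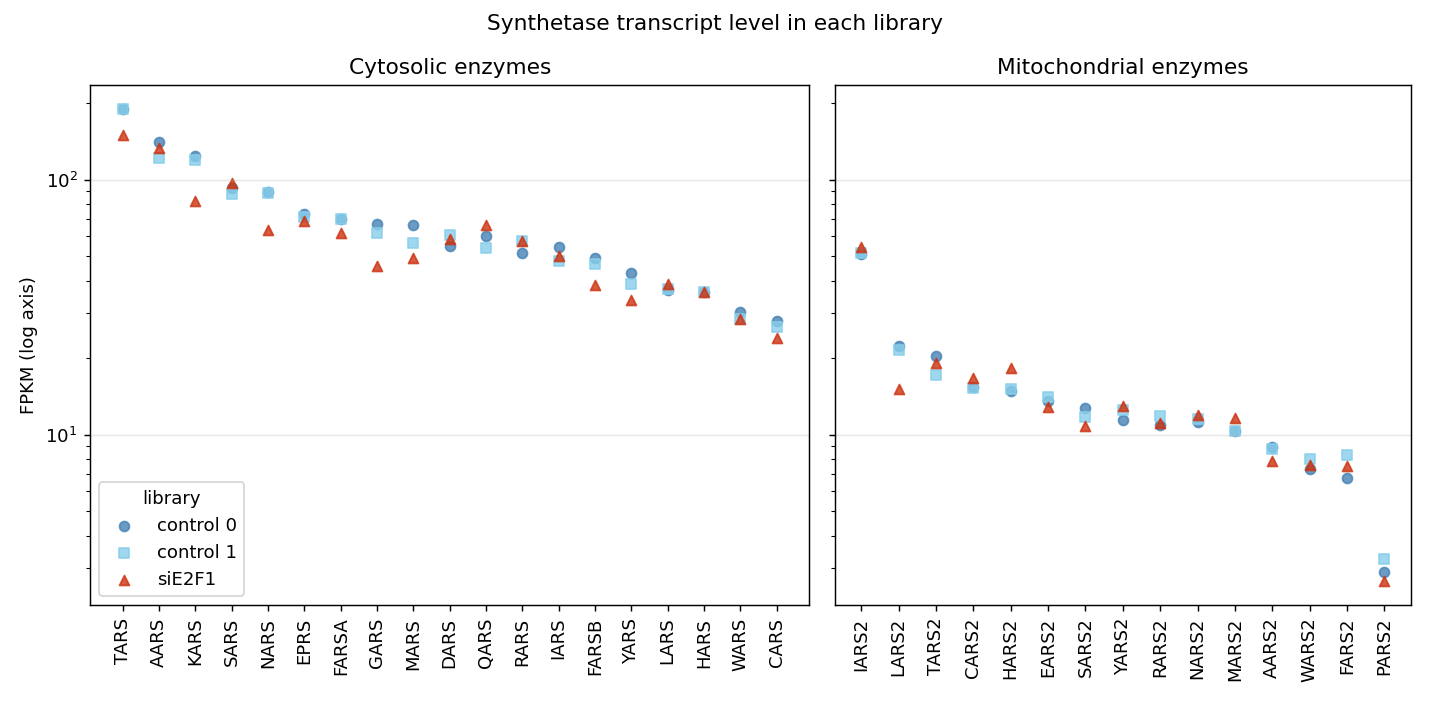
FPKM of the 34 synthetase genes (log axis), 1 symbol per library, ordered by control mean within the 19 cytosolic and 15 mitochondrial genes. Cytosolic genes lie between 24.0 and 190 FPKM, mitochondrial genes between 2.66 and 54.2, and the siE2F1 symbols of KARS, NARS, GARS, TARS and LARS2 lie visibly under both control symbols.

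The question of the comparison was how transcript levels differ once E2F1 is silenced. No synthetase passed limma over all genes tested (0 of 34, where 0.417% of all genes were called), and 0 lay 2-fold beyond both controls (1.58% of all genes). At an unadjusted p under 0.05 there were 7, 6 lower and 1 higher, where 28.4% of all genes were, 14.9% lower and 13.5% higher. The median absolute difference of the members was 0.11 log2 units, beside 0.18 over all genes tested. The controls themselves differed by a median of 0.08 log2 units for the members, and for 11 of the 34 the controls lay further apart than siE2F1 lay from their mean. With the 473 small RNA genes left out of the fit, 4 members passed, KARS, NARS, GARS and LARS2. All 4 were lower in siE2F1; of all genes 10.5% were called in that fit, 6.36% lower and 4.17% higher. In bulk RNA, fewer cells of one state and less RNA per cell cannot be told apart.

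Position relative to the controls differed between the lists. Of the 19 cytosolic genes 12 were below both controls, 4 above and 3 between, where 39.7% of all genes were below and 43.7% above. Of the 15 mitochondrial genes 5 were below, 6 above and 4 between. WARS and HARS count among the 12 although they lay only -0.0018 and -0.0007 log2 units from the nearer control. The median difference was -0.06 log2 units for cytosolic and 0.0011 for mitochondrial genes, with 0.01 over all genes tested, and the median difference between the controls was -0.08 and 0.03. The mitochondrial median was -0.08 against control 1 alone and 0.04 against control 0 alone. At least 0.3 log2 units below both controls were 4 cytosolic genes and 1 mitochondrial gene, 21.1% and 6.67% of their lists, where 11.6% of all genes were; none of the 34 was as far above (10.1% of all genes). The difference between the lists was not tested.

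**Figure D2:**
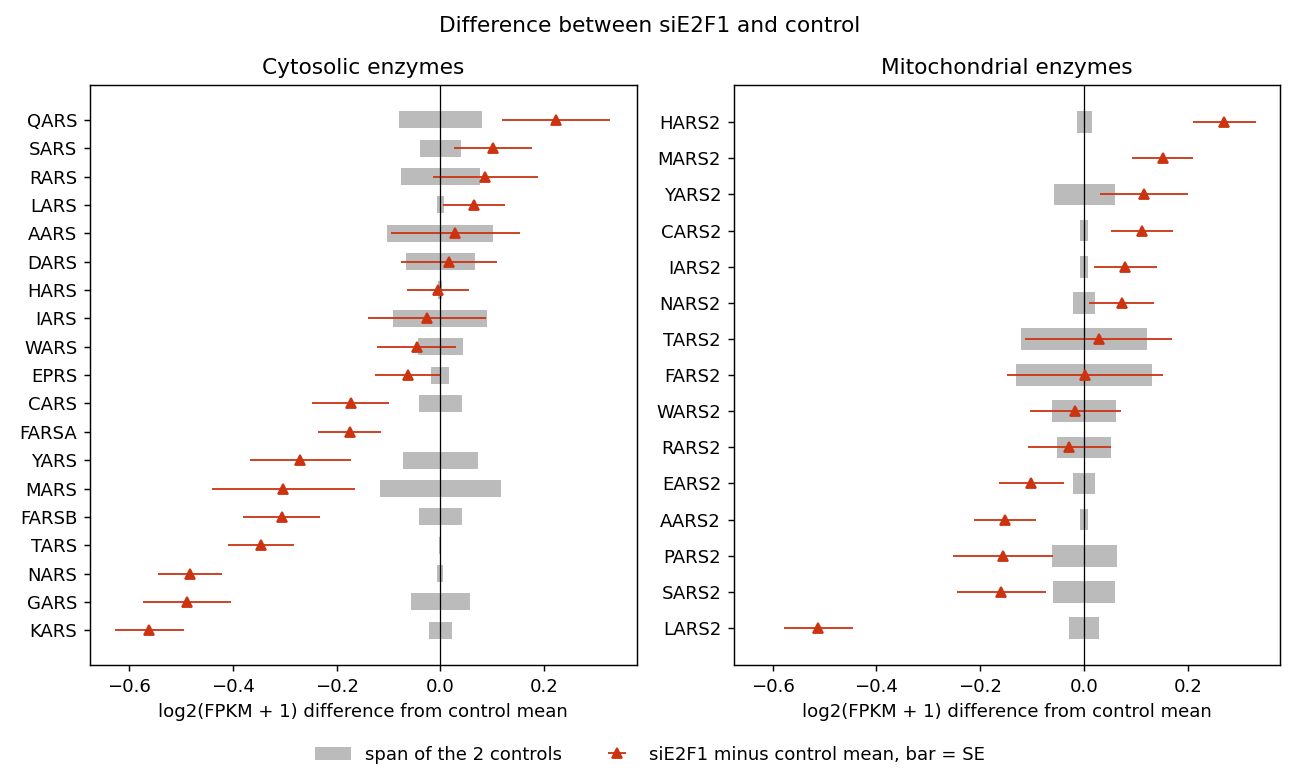
Difference of siE2F1 from the control mean in log2(FPKM + 1) for each member (triangles, with limma's standard error), beside the span of the 2 controls (grey bars), which is too narrow to see where the controls were equal. KARS, GARS, NARS and TARS in the cytosolic list and LARS2 in the mitochondrial list stand furthest to the left, from -0.35 to -0.56, and HARS2 furthest to the right at 0.27.

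KARS, the lysyl enzyme of both compartments and a member of the multisynthetase complex, had the largest downward difference of the family. Its level was 123 FPKM in control 0, 120 in control 1 and 82.0 in siE2F1, a log2 difference of -0.56 (standard error 0.0664, limma adjusted p = 0.111; without small RNA genes 0.0365). NARS, the asparaginyl enzyme, was at 89.5, 88.8 and 63.5 FPKM (-0.48, standard error 0.0617, limma adjusted p = 0.111; 0.0394). For both genes siE2F1 lay well outside the narrow control range. Over the settings tried, the adjusted p of KARS and of NARS reached at most 0.188. GARS, the glycyl enzyme and the other gene serving both compartments, was at 67.0, 61.9 and 45.6 FPKM (-0.49, standard error 0.0851, limma adjusted p = 0.121; 0.0463). Both dual-compartment genes were among the 5 members at least 0.3 log2 units under the controls, a pairing picked out after the values were seen. TARS was at 189, 190 and 149 FPKM (-0.35, standard error 0.0635) and did not pass in either fit (limma adjusted p = 0.125; 0.0584). The 2 TARS controls were nearly equal.

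The summed level of the 19 cytosolic genes was 1356, 1300 and 1183 FPKM, so that siE2F1 was 10.9% under the control mean. KARS, NARS, GARS and TARS, the 4 picked as at least 0.3 log2 units below both controls, made up 85.6% of that difference. The remaining 15 summed to 887, 840 and 843 FPKM, with siE2F1 between the controls. The mitochondrial genes summed to 220.0, 220.7 and 220.1 FPKM, and their share of the family's summed level was 14.0%, 14.5% and 15.7%.

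Smaller differences were seen in 5 further cytosolic genes below both controls by at least 0.1 log2 units. FARSB and FARSA encode the beta and alpha subunits of the cytosolic phenylalanyl enzyme. FARSB was at 49.4, 46.6 and 38.6 FPKM (-0.31) and FARSA at 70.0, 69.9 and 61.8 FPKM (-0.17). The methionyl gene MARS was at 66.2, 56.2 and 49.3 FPKM (-0.30), but its controls lay 0.23 log2 units apart. Its exons overlap those of DDIT3 on the opposite strand by 62 bases in GENCODE 29, and the library kit does not mark strand. The tyrosyl gene YARS was at 43.2, 38.9 and 33.8 FPKM (-0.27) and CARS at 28.0, 26.4 and 24.0 FPKM (-0.17). YARS shares 248 exon bases with S100PBP on the opposite strand. EPRS, the fused glutamyl and prolyl enzyme, was closer, at 73.0, 71.3 and 69.0 FPKM (-0.06). The adjusted p of these genes was 0.149 or more.

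Of the 4 cytosolic genes above both controls, QARS, the glutaminyl enzyme, lay furthest out, at 60.1, 53.8 and 66.5 FPKM (0.22, limma adjusted p = 0.282). SARS, the seryl enzyme, was at 92.9, 87.8 and 96.9 FPKM, and LARS, the cytosolic leucyl enzyme, at 37.0, 37.4 and 38.9 FPKM. RARS, the arginyl enzyme, was at 51.4, 57.3 and 57.7 FPKM, barely above control 1. AARS, DARS (aspartyl) and IARS lay between their controls, with differences of 0.03, 0.02 and -0.03. In LARS siE2F1 lay 0.06 log2 units above the nearer control, beside a standard error of 0.0604, and in QARS 0.14, beside a standard error of 0.103.

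In the mitochondrial list LARS2 was the gene farthest below the controls. Its level was 22.4, 21.4 and 15.05 FPKM (-0.51, standard error 0.0662, limma adjusted p = 0.111; without small RNA genes 0.0397). The next were AARS2 at 8.92, 8.81 and 7.87 FPKM (-0.15), SARS2 at 12.8, 11.7 and 10.8 FPKM (-0.16) and PARS2 at 2.90, 3.26 and 2.66 FPKM (-0.16). EARS2, the mitochondrial glutamyl enzyme, was at 13.6, 14.0 and 12.8 FPKM (-0.10). None of these 4 was more than 0.15 log2 units below the nearer control. In GENCODE 29, SARS2 shares 1492 of its 2215 exon bases with AC011455.2 on the same strand and 349 with MRPS12 on the opposite strand. EARS2 shares 370 exon bases with UBFD1 on the opposite strand.

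HARS2, the mitochondrial histidyl enzyme, had the largest upward difference of the family. Its level was 14.8, 15.1 and 18.2 FPKM (0.27, standard error 0.0607, limma adjusted p = 0.141; 0.0928). Its head-to-head neighbour HARS was at 36.3, 36.1 and 36.1 FPKM (-0.0047), so the genes that share a start region gave unequal values. GENCODE 29 lets exons of the pair overlap by 402 bases, and without strand some reads could be counted to either gene. MARS2 was at 10.4 FPKM in both controls and 11.6 in siE2F1 (0.15), CARS2 at 15.4, 15.2 and 16.6 FPKM (0.11) and IARS2 at 51.0, 51.6 and 54.2 FPKM (0.08). NARS2 (0.07) and YARS2 (0.12) were also above both controls, while TARS2, FARS2, WARS2 and RARS2 lay between them. The control range of TARS2 was wide, from 17.1 to 20.4 FPKM.

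Pairing each cytosolic gene with the mitochondrial gene for the same amino acid gave 16 ratios, in which EPRS and FARS2 each occur in more than 1 pair. The cytosolic transcript was the higher in every pair and library, except that IARS was at 0.931 of IARS2 in control 1 and 0.927 in siE2F1. The median ratio was 5.88, 5.25 and 5.16 in control 0, control 1 and siE2F1. The ratio in siE2F1 was below both controls in 9 pairs, above in 6 and between in 1. Differences in opposite directions were largest for asparagine and leucine. The ratio of NARS to NARS2 was 8.02, 7.71 and 5.31 (log2 difference -0.57), and that of LARS to LARS2 was 1.66, 1.74 and 2.59 (0.61). In the first pair the cytosolic transcript was the lower one in siE2F1, and in the second the mitochondrial one. The histidine ratio, HARS to HARS2, was 2.46, 2.39 and 1.98 (-0.29). The cysteine ratio, CARS to CARS2, was 1.82, 1.74 and 1.45 (-0.30), and control 1 differed from control 0 by -0.07 log2 units. For threonine, methionine, tyrosine and phenylalanine, siE2F1 lay below both controls, but the controls themselves differed by 0.24 to 0.38 log2 units.

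**Figure D3:**
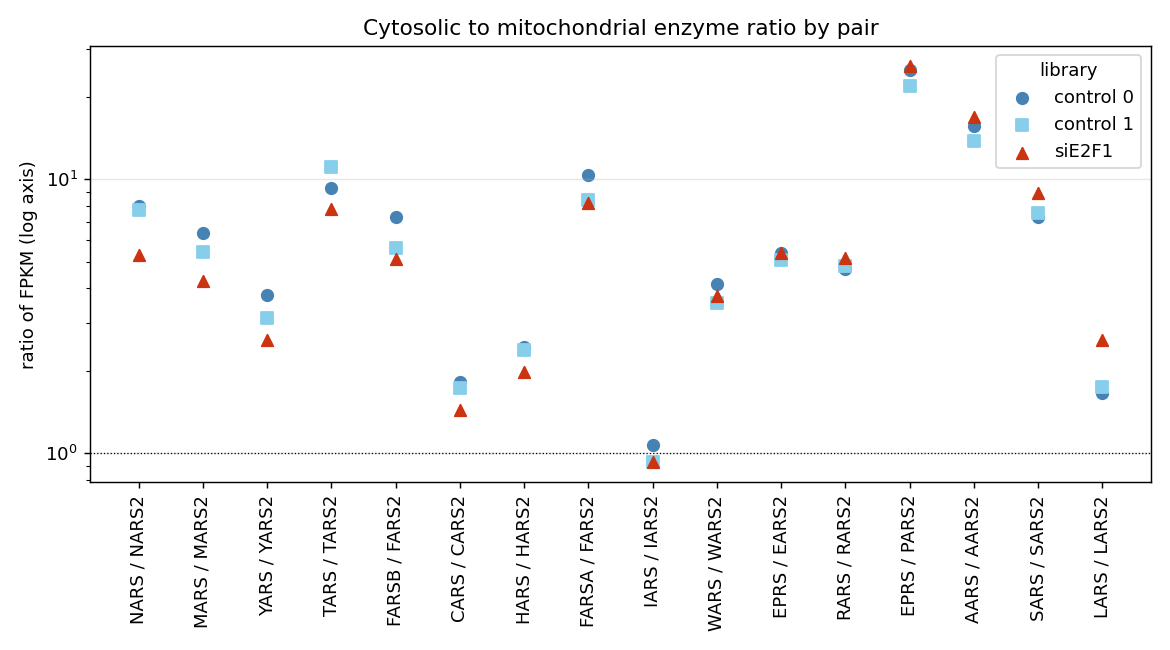
Ratio of cytosolic to mitochondrial FPKM (log axis) for 16 pairs, 1 symbol per library, ordered by the difference between siE2F1 and the controls, with a dotted line at equal levels. The ratios span 0.927 to 26.0, with NARS to NARS2 lowest and LARS to LARS2 highest in siE2F1 relative to control.

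WARS was close to the controls in a library where genes of the mainly type I interferon list were high. It was at 30.4 FPKM in control 0, 28.5 in control 1 and 28.5 in siE2F1 (-0.05, standard error 0.0754, limma adjusted p = 0.712, range 0.705 to 0.728 over the settings tried). The siE2F1 value lay -0.0018 log2 units from control 1. All 11 genes of the list of mainly type I interferon targets were at least 0.3 log2 units above both controls, where 10.1% of all genes were, with a median difference of 2.47. Of them 5 passed over all genes tested (0.417% of all genes), and 10 as higher once small RNA genes were left out (4.17% of all genes). OASL, a relative of the oligoadenylate synthetases, was at 1.27, 1.39 and 34.5 FPKM, and IFIT1, which binds foreign RNA, at 2.88, 2.81 and 31.0 FPKM. This list was chosen with those values known and is given as context only. With no filter on mean FPKM neither gene passed (adjusted p = 0.103 and 0.0982).

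Of 11 genes named as mainly driven by interferon gamma, 8 were matched in the files and 3 of those reached a mean of 1 FPKM. The 3 lay on different sides of the controls. GBP2, a guanylate-binding GTPase, was at 4.53, 4.16 and 5.66 FPKM (0.32). IRF1, a factor that acts at ISRE sites, was at 4.07, 3.70 and 3.89 FPKM, between the controls, and IDO1, the enzyme that breaks down tryptophan, at 2.00, 1.93 and 1.82 FPKM, below them. The other 5 matched genes were under the minimum and entered no test; their values were added after being seen. CXCL10, a chemokine, was at 0.0564, 0.133 and 0.976 FPKM, and GBP1, a relative of GBP2, at 0.575, 0.486 and 1.045 FPKM, both above both controls. CIITA was also above both, at 0.391, 0.354 and 0.432 FPKM. SOCS1 was below both, at 0.240, 0.261 and 0.156 FPKM, and CXCL9 was listed at 0 in both controls. The difference between WARS and the genes of either list was not tested. WARS2, the mitochondrial tryptophanyl enzyme, was at 7.31, 8.06 and 7.58 FPKM, between the controls. WARS shares 272 exon bases with WDR25, at 4.19 FPKM in the controls, on the opposite strand in GENCODE 29.

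Most genes of the ATF4 and amino acid response list were lower in siE2F1. Of 20 listed, 17 were below both controls and 3 above, where 39.7% and 43.7% of all genes were. At least 0.3 log2 units below both were 9, and 1 was as far above (11.6% and 10.1% of all genes), and the median difference was -0.29. None passed limma over all genes tested. At an unadjusted p under 0.05 there were 10 lower and 2 higher (14.9% and 13.5% of all genes), and 4 passed as lower without small RNA genes (6.36% of all genes). ATF4 itself was at 303, 318 and 244 FPKM (-0.34, limma adjusted p = 0.137). SLC7A5, the light chain of a transporter of large neutral amino acids, was at 52.4, 42.4 and 24.2 FPKM (-0.94, limma adjusted p = 0.123; without small RNA genes 0.0403). CHAC1, which degrades glutathione, was at 4.54, 4.43 and 2.41 FPKM (-0.69, limma adjusted p = 0.111; 0.0364). VLDLR, a lipoprotein receptor, was at 8.03, 7.99 and 10.4 FPKM, and PSAT1, of serine synthesis, at 66.0, 64.0 and 81.0 FPKM, both above the controls. ASNS, asparagine synthetase, was at 40.2, 39.3 and 35.1 FPKM (-0.17).

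Among the 12 cytosolic synthetases known as ATF4 targets, 8 were below both controls and 2 above (66.7% and 16.7%), with a median of -0.12. Among the other 7 cytosolic genes 4 were below and 2 above (57.1% and 28.6%), with a median of -0.0047. Over all genes tested, 39.7% were below and 43.7% above. Of the 7 genes with a C/EBP-ATF match, 5 were below both controls and 2, AARS and IARS, between them, with a median of -0.30. The 9 cytosolic genes with a window and no match had 6 below and 3 above and a median of -0.05. WARS and HARS, -0.0018 and -0.0007 log2 units from the nearer control, are both among these 6. WARS is also among the 8 ATF4 targets counted below, and HARS among the 4 of the other cytosolic genes. KARS, with the largest downward difference, is in the group without a match. These groups are small, were formed with the values known and were not tested against each other.

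**Figure D4:**
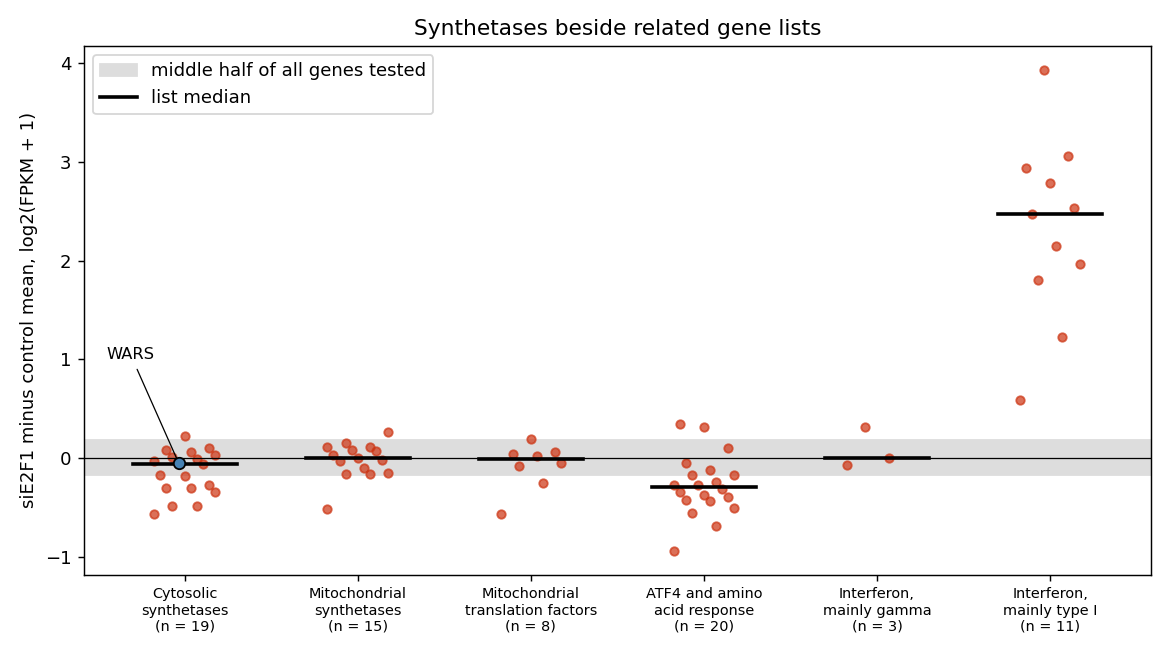
Difference between siE2F1 and the control mean in log2(FPKM + 1) for the tested genes of 6 lists, with the list median as a line and the middle 50% of all genes tested as a band from -0.17 to 0.18. WARS (blue point) lies at -0.05 among the cytosolic synthetases, while the medians are -0.29 for the ATF4 list and 2.47 for the mainly type I interferon list.

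Members were also grouped by structure and partners, beside 39.7% of all genes below both controls and 43.7% above. The 8 enzymes of the multisynthetase complex had 3 members below, 3 above and 2 between the controls (37.5% below, 37.5% above, median -0.0047). The 11 cytosolic genes outside it had 9 below, 1 above and 1 between (81.8% below, 9.09% above, median -0.17). WARS and HARS count among these 9 although they lay only -0.0018 and -0.0007 log2 units from the nearer control. The scaffold proteins of the complex were split: AIMP2 was at 36.9, 33.95 and 27.2 FPKM (-0.37, limma adjusted p = 0.144), AIMP1 at 30.8, 33.5 and 28.3 FPKM, and EEF1E1 at 44.1, 43.6 and 47.7 FPKM. By catalytic fold, class I enzymes had 7 members below and 7 above of 17 (41.2% each, median -0.03). The fused enzyme EPRS was counted in class I, while the prolyl enzyme PARS2 was in class II, so this split is not clean. Class II enzymes had 10 below and 3 above of 17 (median -0.15), with KARS, NARS, GARS and TARS among the 10. The counts below both controls include HARS in class II and WARS in class I. These groups were formed with the values known, and none of the differences between them was tested.

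Neighbouring steps of translation were measured from lists as well. Mitochondria have no glutaminyl synthetase, and an amidotransferase converts glutamate on the tRNA charged by EARS2. Its subunit genes were each below both controls, QRSL1 at 7.37, 7.73 and 6.64 FPKM, PET112 at 10.5, 11.9 and 10.0, and GATC at 31.7, 33.0 and 30.4, with differences of -0.16, -0.15 and -0.09. MTFMT, which formylates the initiator methionyl-tRNA, was at 7.46, 7.93 and 7.44 FPKM. No gene of this list passed, and 39.7% of all genes were below both controls. Of 8 mitochondrial translation factors 4 were below both controls and 2 above (39.7% and 43.7% of all genes), with a list median of -0.01. TSFM, an elongation factor, was the furthest at 26.1, 26.7 and 17.5 FPKM (-0.57, limma adjusted p = 0.111, without small RNA genes 0.0365). GFM1, the elongation factor that moves the ribosome, was at 22.4, 22.9 and 18.8 FPKM. On the higher side MTRF1, a release factor, was at 3.18, 3.23 and 3.81 FPKM, and MTIF2, an initiation factor, at 15.0, 15.2 and 15.9.

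The cytosolic elongation factors, which take the charged tRNA from the synthetases to the ribosome, were divided. EEF1A1, which binds the charged tRNA, was at 3207 FPKM in both controls and 3965 in siE2F1 (0.31, limma adjusted p = 0.150). EEF2, the translocation factor, was at 666, 596 and 717 FPKM. EEF1G, a subunit of the factor that recharges EEF1A1 with GTP, was at 1020 FPKM in both controls and 767 in siE2F1 (-0.41, limma adjusted p = 0.119; without small RNA genes 0.0439). DTD1, which removes D-amino acids from tRNA, was at 18.1, 19.4 and 15.1 FPKM (-0.30), and PSTK, of selenocysteine synthesis, at 6.45, 6.31 and 7.06 FPKM (0.13). AARS, CARS, GARS, KARS, NARS, RARS, WARS, FARSB, IARS2, TARS2 and WARS2 have pseudogenes in GENCODE 29 that could share reads with them, so their levels are less certain. Exons of CARS, DARS, GARS, LARS, WARS, FARSA, AARS2, NARS2 and WARS2 also overlap genes on the opposite strand that were not matched in the files, by 6 to 235 bases each.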

How the data were processed

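Libraries came from a TruSeq RNA v2 kit (labels' protocols). Cufflinks 2.0.2, TopHat2 2.0.4 and hg19 are listed, per the submitters' processing notes, without parameters; no source used here gives the annotation. The deposited unit is log2 FPKM, with a lowest value of log2 of 0.1. FPKM was computed here as 2 to the deposited value, less 0.1, which is 0.1 too low if 0.1 was a minimum and not an addition. Sorted deposited values differ between libraries by at most 0.0653 log2 units, as quantile normalization would give, a step no source states. With such a step, genes of equal rank get equal values. Equal controls, as in EEF1A1, EEF1G and MARS2, therefore need not mean measured agreement.

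The analysis used log2(FPKM + 1), on which changes of low genes look smaller. R 4.3.3 and limma 3.58.1 (empirical Bayes, mean-variance trend, two-sided, Benjamini-Hochberg over all genes tested at 0.05) were run on genes averaging at least 1 FPKM. The spread comes from the 2 controls (1 residual degree of freedom per gene); siE2F1, a single library, is taken to vary as they do. The step was checked on simulated data modelled on the fit without small RNA genes. The main fit was not simulated. Alternatives were a pseudocount of 0.1, no filter, a minimum of 5 FPKM, leaving out small RNA genes (SNOR, MIR, SCARNA and RNU names), no trend, a common median, quantile normalization and each control left out.

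The members, lists and alternatives were chosen with earlier results of these data known. Within the cytosolic and the mitochondrial list, up to 4 members per direction farthest beyond the nearer control are described in full, and from each related list up to 2 per direction; ATF4, ASNS, IRF1, GATC and MTFMT were added after their values were seen, as were the motif patterns, the size threshold of 0.3 log2 units and the groups by complex, class and promoter match. Promoter sequences are from RefSeq (GRCh38.p14), and exon overlaps and pseudogene names from GENCODE 29; no coordinate was converted between builds. One further gene of the interferon gamma list, not among the 11 counted, is not reported here.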

Additional observations from a re-analysis of the deposited data

How the results depend on the processing

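With small RNA genes left out, 4 synthetases were called, KARS, NARS, GARS and LARS2, against 0 under each other setting that gave a test, so that whether any member passes depends on those genes being in the fit. E2F1 was lower under each setting, but a pseudocount of 0.1 ended its call (-2.59, adjusted p = 0.0601), as did dropping the filter (-2.12, adjusted p = 0.159). With 1 control left out there is no residual degree of freedom, so these are values with no test. They put 6 to 8 mitochondrial genes below the remaining control and gave a mitochondrial median of -0.079 without control 0 and 0.045 without control 1. No member changed direction under a setting that gave a test, while the 7 members lying between the controls point either way according to which control is left out; PARS2 has no value at a minimum of 5 FPKM. A common median moved no library. No paired analysis was possible because there is 1 siE2F1 library and its label carries no number. Depth is unknown, so no counting error can be given.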
